A study of Mus musculus with 24 samples.

Results

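The 35 genes described here are transcripts that are enriched in astrocytes of the adult mouse brain. They were chosen by name as known astrocyte markers, and all 35 were found among the 46983 genes of the count table and passed the filter on low counts. RNA was sequenced from hippocampal tissue of 24 adult female C57BL/6 mice in 4 groups of 6. Fkbp5lox/lox mice carried Fkbp5 alleles flanked by lox sites and no Cre, and served as the wild-type littermates, whereas Fkbp5Nex mice carried the same floxed alleles together with Nex-Cre, which is expressed from the Nex (Neurod6) locus and removes FKBP51, a co-chaperone of the glucocorticoid receptor, from glutamatergic forebrain neurons from embryonic development onwards. Within each genotype, mice were raised under control conditions or under early life stress (ELS), for which dams had limited bedding and nesting material from P2 to P9, and the tissue was taken in adulthood, after behavioural testing at 6 months of age. All 24 mice thus carried floxed Fkbp5, and the deletion was driven in neurons, not in the astrocytes whose transcripts are described here. By the study's account the deletion did not include the dentate gyrus. Single animals were sequenced without pooling from 1 mm punches of dorsal and ventral hippocampus, and the litter of each mouse was not given.

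Astrocytes are glia that buffer potassium and glutamate around synapses, couple to each other through gap junctions, wrap blood vessels with endfeet rich in the water channel aquaporin-4, and supply lactate, cholesterol and lipoproteins to neurons. In the hippocampus they line the synapses of pyramidal neurons in the strata around the cell body layer. After injury, inflammation or neuronal loss they become reactive, a state marked by more of the intermediate filament proteins GFAP and vimentin, and glucocorticoids are known to regulate a number of their genes. The 35 genes cover 7 roles: 2 transcription factors, 3 filament or calcium-binding proteins, 5 genes of gap junctions and endfeet, 5 ion and solute carriers, 6 receptors, 6 metabolic enzymes and related proteins, and 8 secreted, lipid or coagulation proteins. Of these, 14 are also strongly expressed by at least 1 other cell type of the brain, among them Apoe, which microglia make, Vim, which vessel cells make, and Atp1b2.

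The genes lie on 18 chromosomes in the GRCm38 annotation (GENCODE vM21), and 10 of them overlap another annotated gene. For 5 the overlap falls in exons (Hes5, Slc7a10, Fgfr3, Aldh1l1 and Pla2g7), so that reads of the partner cannot be told apart from theirs without knowing whether strand was used in counting. Gfap is on chromosome 11 from 102887336 to 102900912 on the minus strand, Vim is on chromosome 2 from 13573927 to 13582826 on the plus strand, and Agt is on chromosome 8 from 124556534 to 124569706 on the minus strand.

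The start-site regions of these 3 genes are shown because Gfap and Vim were both far higher in the same 2 mice, as described below, while Agt did not follow the other genes. Each is the RefSeq window of 300 bases around an annotated start (build GRCm38.p6), 5′ to 3′ on the strand of the gene, with matches to the STAT motif TTCNNNGAA and the RBPJ motif TGGGAA (both strands) in capitals. STAT3 is a known activator of Gfap in astrocytes and RBPJ is the DNA-binding partner of Notch.
Gfap, chr11:102897151-102897450, minus strand: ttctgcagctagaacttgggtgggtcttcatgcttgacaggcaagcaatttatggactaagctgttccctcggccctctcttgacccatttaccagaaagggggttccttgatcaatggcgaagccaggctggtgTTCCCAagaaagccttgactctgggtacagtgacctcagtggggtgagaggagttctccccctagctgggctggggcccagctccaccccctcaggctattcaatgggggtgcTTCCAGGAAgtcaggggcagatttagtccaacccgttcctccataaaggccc
Vim, chr2:13574061-13574360, plus strand: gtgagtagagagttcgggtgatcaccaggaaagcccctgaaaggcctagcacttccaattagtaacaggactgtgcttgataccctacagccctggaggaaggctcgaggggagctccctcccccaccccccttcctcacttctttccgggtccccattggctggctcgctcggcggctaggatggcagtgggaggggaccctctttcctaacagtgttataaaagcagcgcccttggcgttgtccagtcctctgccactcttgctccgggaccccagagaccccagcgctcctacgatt
Agt, chr8:124569657-124569956, minus strand: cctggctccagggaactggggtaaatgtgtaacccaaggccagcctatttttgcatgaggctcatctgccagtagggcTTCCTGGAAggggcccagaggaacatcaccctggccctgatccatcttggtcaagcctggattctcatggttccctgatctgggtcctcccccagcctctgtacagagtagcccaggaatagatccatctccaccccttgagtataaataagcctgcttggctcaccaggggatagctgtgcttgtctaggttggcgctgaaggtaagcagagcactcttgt
The Gfap window held 1 STAT match and 1 RBPJ match, the Agt window 1 STAT match, and the Vim window neither. A window was found for 29 of the 35 genes (38 windows in all, since some genes have several starts), and none was matched for Slc14a1, Clu, Atp1b2, Sparcl1, Aqp4 and Sox9. STAT matches stood in 6 of the 38 windows (15.8%, those of Agt, Aldoc, Gfap, Ntsr2, Pla2g7 and Prodh), against 8.3% of all 32851 windows. RBPJ matches stood in 28.9% of the windows of astrocyte genes and 25.6% of all windows, and matches to the SOX motif ACAATG in 7.89% and 12.6%. Matches to the palindromic NFI site and to the palindromic glucocorticoid receptor site were in 0 of the 38 windows, against 0.0365% and 0.00913% of all windows. These matches are letters in a window and are given as a description.

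Libraries held 18347283 to 26555623 counted reads. The targeted gene followed the labels: Fkbp5 counts were 1078 to 1602 in the 12 Fkbp5lox/lox mice and 169 to 582 in the 12 Fkbp5Nex mice, the highest Fkbp5Nex value being that of control mouse 12. All 11 neuronal markers, all 30 other astrocyte genes listed beside the 35, and all 10 microglial markers were detected in the tissue. Markers of thalamus summed to 506 to 1093 CPM (read counts scaled by TMM library size) and markers of choroid plexus to 83.6 to 6516 CPM over the 24 mice.

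Levels of the 35 genes spanned a wide range. Per kilobase of annotated exon, the apolipoprotein Apoe was highest, with a mean of 691 CPM per kb (562 to 898 over the 24 mice), followed by the matrix protein Sparcl1 at 551 (486 to 645). Next came the glycolytic enzyme Aldoc at 246 (203 to 352) and the chaperone-like apolipoprotein Clu at 240 (184 to 406), whose ranges over mice overlapped almost fully. Lowest was the Notch target Hes5, with a mean of 3.19 CPM per kb (1.53 to 4.38) and 43 to 132 reads per mouse, and its range overlapped that of the proline dehydrogenase Prodh (mean 3.49, range 2.36 to 5.61). Counting error therefore bears on Hes5 more than on any other gene here. The coefficient of variation over the 24 mice was lowest for Sparcl1 (8.46%), had a median of 15.3% over the 35 genes, and was highest for Gfap (69.6%) and next for Vim (43.8%).

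The account of the mice comes before that of the groups, because 2 Fkbp5Nex control mice stood apart from the other 22 animals in Gfap and Vim. Gfap, the filament protein of astrocytes, was at 1871 CPM in mouse 12 and 1707 CPM in mouse 52, both Fkbp5Nex controls, while the other 22 mice were between 257 and 893 CPM with a median of 429. Mouse 12 was thus 4.37 times and mouse 52 was 3.98 times that median, and the next highest animal, at 893 CPM, was Fkbp5Nex control mouse 64. Vim, which codes for vimentin, a second intermediate filament protein, was at 92.4 CPM in mouse 12 and 95.1 CPM in mouse 52, against 24.2 to 49.2 CPM in the other 22 mice. The remaining 4 Fkbp5Nex controls had a mean of 542 ± 245 CPM for Gfap and 42.1 ± 7.04 CPM for Vim (SD, n = 4), and apart from Gfap in mouse 64 they lay within the range of the other groups.

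The same 2 animals were high for much of the list. Mouse 12 had the highest value of all 24 mice for 22 of the 35 genes and mouse 52 for 8, so that 30 of the 35 peaked in these mice. In mouse 12 the connexin Gja1 was at 415 CPM against a highest value of 296 in the other 22 mice, Aqp4 was at 336 against 259, Clu was at 1394 against 1029, and the folate enzyme Aldh1l1 was at 59.7 against 45.4. In mouse 52, Gja1 was at 330 CPM and Aldh1l1 at 53.7, but Aqp4, at 208 CPM, was inside the range of the other mice, and the bicarbonate transporter Slc4a4 was at its lowest of all 24 animals (156 CPM). The filament genes were thus high in both mice, whereas Slc4a4, the zinc transporter Slc39a12, Sparcl1 and the receptor Bmpr1b were at their highest in mouse 12 and inside the range of the other mice, or below it, in mouse 52. The astrocyte score, the mean z-score of the 35 genes in a mouse, was 2.04 in mouse 12, 1.16 in mouse 52 and 0.953 in Fkbp5Nex control mouse 32, and lowest in Fkbp5Nex ELS mouse 10 (-1.01). At the low end, mouse 10 and Fkbp5lox/lox ELS mouse 72 each held the lowest value of 10 genes.

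**Figure D1:**
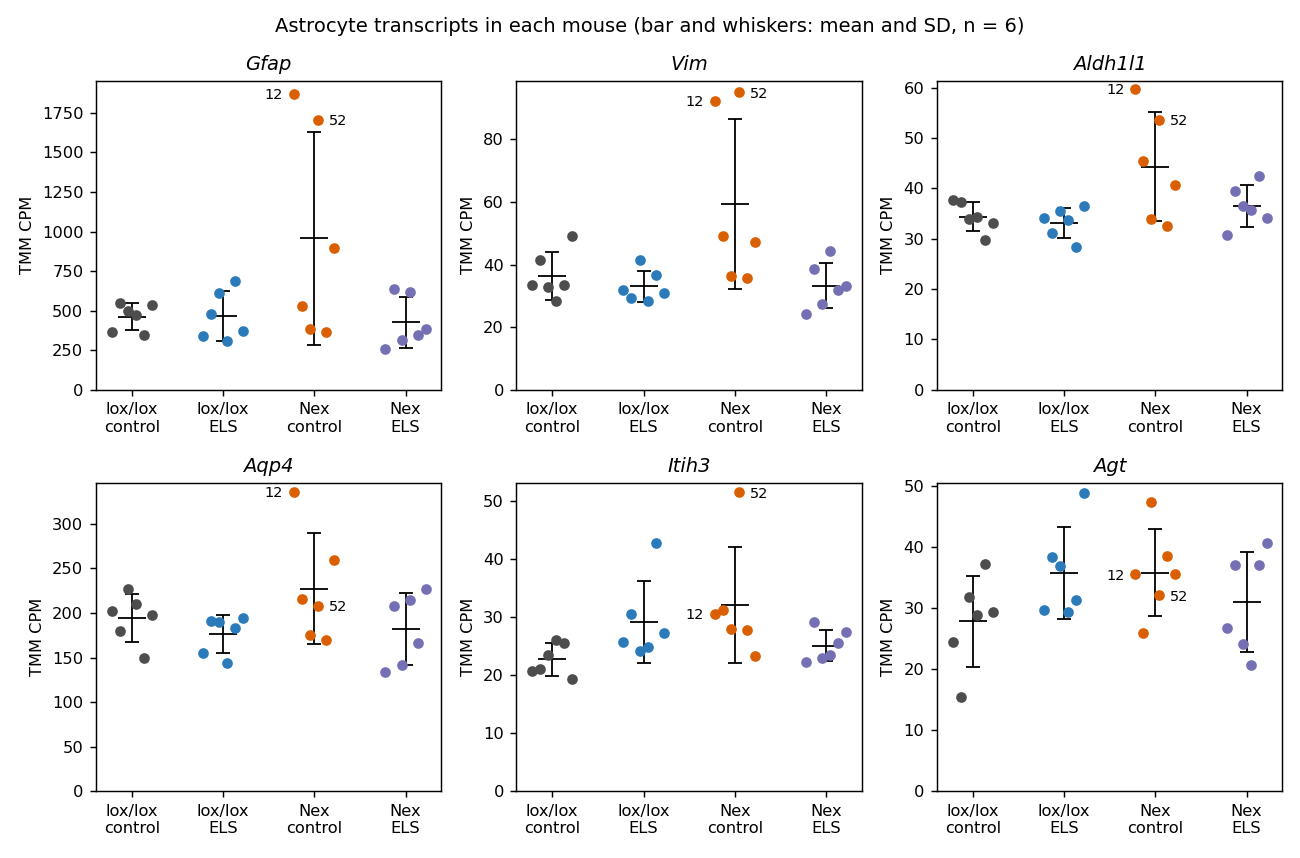
TMM-scaled CPM of Gfap, Vim, Aldh1l1, Aqp4, Itih3 and Agt in each of the 24 mice by group, with the group mean and SD (n = 6). Fkbp5Nex control mice 12 and 52 are numbered: for Gfap they sit at 1871 and 1707 CPM above all other mice, whereas for Agt they lie inside the range of their group.

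Other cell types moved in these mice too. The score of the 10 microglial markers was 2.26 in mouse 12, the highest of the 24. It was 1.38 in Fkbp5Nex ELS mouse 60, 1.37 in mouse 52 and 1.015 in Fkbp5Nex control mouse 32. Their summed level was 609 CPM in mouse 12 and 506 in mouse 52, against ranges of 322 to 427 in Fkbp5lox/lox controls, 338 to 384 in Fkbp5lox/lox ELS mice and 306 to 493 in Fkbp5Nex ELS mice. In mouse 12 the endothelial score was 2.20 and the mural and meningeal score 1.97, both the highest, while the neuronal score (-1.46) was the lowest of all mice and the oligodendrocyte score was -1.73. Mouse 52 had an endothelial score of 0.515 and a neuronal score of -0.179. The score of 27 detected genes of reactive astrocytes, a list that leaves out Gfap and Vim, was highest in mouse 12 (1.36) and next in mouse 52 (1.14). For the 30 other astrocyte genes the score was highest in mouse 12 (1.58), but mouse 52 (0.344) ranked only 6 of 24. Their summed level in mouse 52, 6026 CPM, was inside the Fkbp5lox/lox control range of 5587 to 7683 CPM. The part of these other cell types in the levels of the 35 genes was not tested. In bulk tissue, more astrocytes and more RNA of these genes per astrocyte cannot be told apart.

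**Figure D2:**
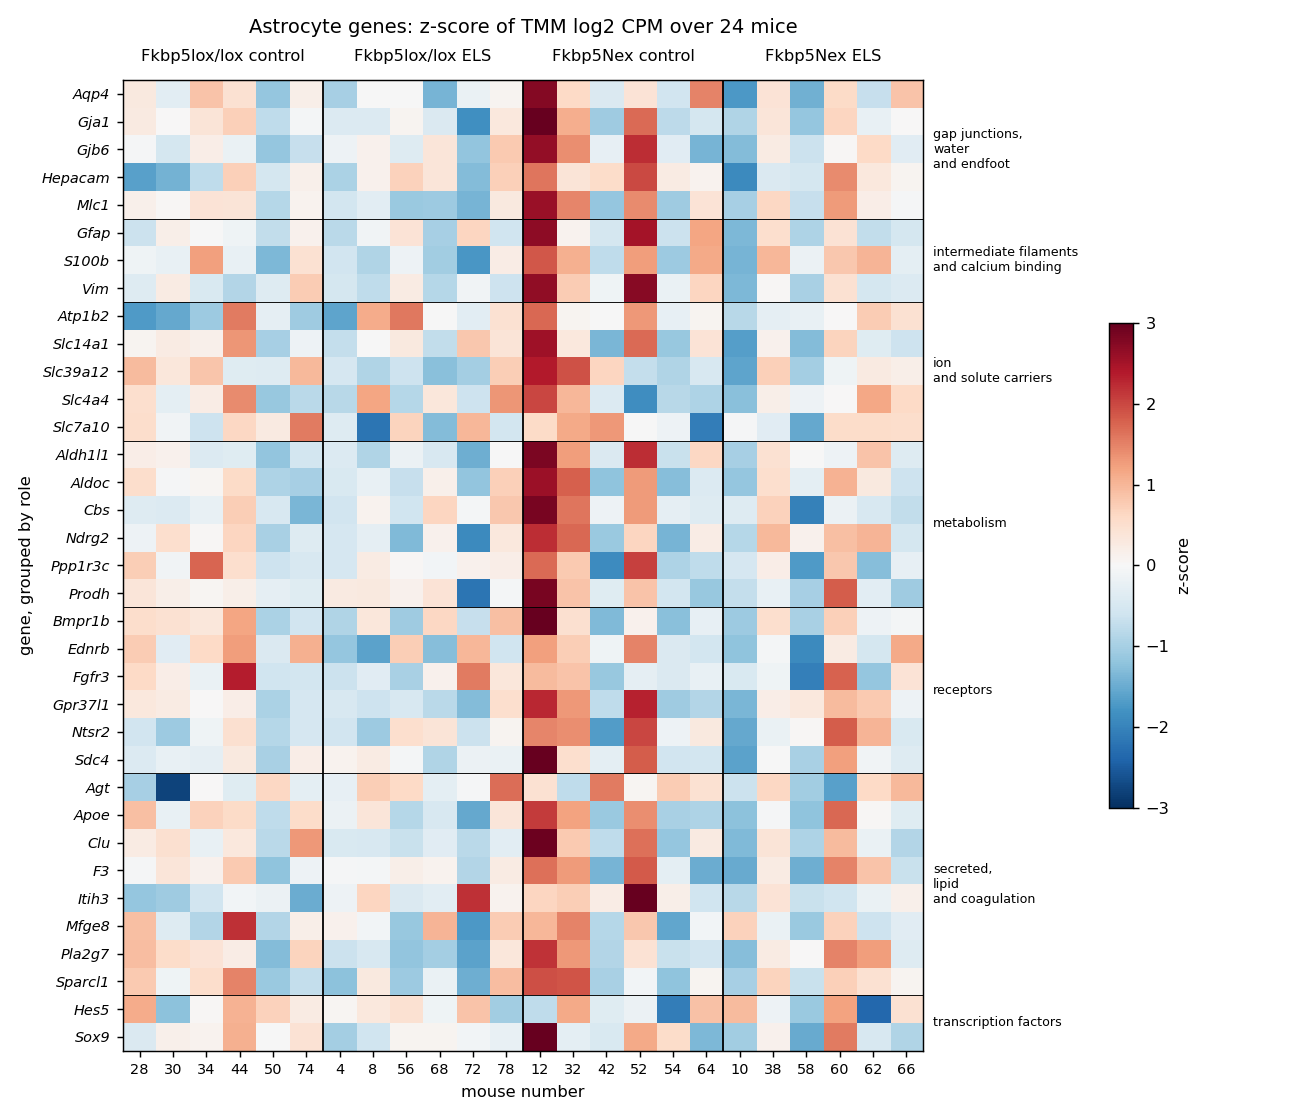
Each row is 1 of the 35 genes, grouped by role, and each column 1 of the 24 mice, by group; colour is each gene's z-score (TMM log2 CPM) among the animals. The column of Fkbp5Nex control mouse 12 is red for most rows, with an astrocyte score of 2.04, that of Fkbp5Nex ELS mouse 10 is mostly blue (-1.01), and the rows of Agt, Hes5 and Slc7a10 follow neither.

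Group comparisons were made with edgeR's quasi-likelihood test over all 16209 genes passing the filter, with 5 surrogate variables (hidden factors estimated from the data) as covariates, and a gene was called at a false discovery rate below 0.02. At that threshold 0 of the 35 genes were called in any of the 7 comparisons, and likewise 0 without surrogate variables. Counts at an unadjusted p under 0.05 are to be read beside the share of all tested genes that passed the same rule in that comparison. In the fit with surrogate variables, p-values and standard errors rest on the spread between mice that those variables leave. Without surrogate variables they rest on the whole spread between mice within groups.

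Genotype was compared first in mice reared under control conditions. Of the 35 genes, 28 had a higher fitted level in Fkbp5Nex than in Fkbp5lox/lox controls, and the median log2 fold change was 0.096, against -0.001 over all genes tested. None was among the 8 genes called (0.0494% of those tested), but 9 passed an unadjusted p under 0.05, all higher in Fkbp5Nex, where 8.69% of all genes passed. These 9 were Gfap, Vim, Aldh1l1, Gjb6, Hepacam, Sdc4, Aldoc, Cbs and Itih3. By role, they were 2 of 3 filament genes, 2 of 5 gap junction and endfoot genes, 3 of 6 metabolic genes, 1 of 6 receptors and 1 of 8 secreted factors, with 0 of 5 carriers and 0 of 2 transcription factors.

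Vim came closest to a call. Its level was lowest 28.3, median 33.4 and highest 49.2 CPM in Fkbp5lox/lox controls and lowest 35.6, median 48.1 and highest 95.1 CPM in Fkbp5Nex controls, so that the groups overlapped. The log2 fold change was 0.44 (SE 0.0906), with an adjusted p of 0.0446 from edgeR. With DESeq2's Wald test in the same design Vim was called (adjusted p = 0.00165), where 0.339% of all genes were called, and it was the member that passed at a false discovery rate of 0.05 in edgeR, where 0.179% of genes did. Leaving out Fkbp5lox/lox ELS mouse 4, which is in neither group compared, brought the adjusted p of Vim to 0.0123, with 0.0738% of genes called. Without mouse 52 the log2 fold change of Vim was 0.16 (adjusted p = 0.847), and without mouse 12 it was 0.40 (adjusted p = 0.999). With all mice and no surrogate variables it was 0.70 (SE 0.213, adjusted p = 0.992 in edgeR).

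Gfap had the largest fold change of the list in this comparison and a wide error. It was lowest 348, median 485 and highest 546 CPM in Fkbp5lox/lox controls and lowest 362, median 710 and highest 1871 CPM in Fkbp5Nex controls, and 3 Fkbp5Nex controls (mice 32, 42 and 54) lay within the Fkbp5lox/lox range. The log2 fold change was 0.61 (SE 0.24, adjusted p = 0.477 in edgeR) and 1.06 (SE 0.344) without surrogate variables. Leaving out mouse 52 alone brought it to -0.03.

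Aldh1l1, a cytosolic folate enzyme that is the most widely used marker of astrocyte cell bodies, was 34.4 ± 2.92 CPM (SD, n = 6) in Fkbp5lox/lox controls and 44.3 ± 10.8 in Fkbp5Nex controls. Among the latter, 4 mice (12, 32, 52 and 64) were above all 6 Fkbp5lox/lox controls, whose highest value was 37.8, and mice 42 and 54 were within their range. The log2 fold change was 0.31 (SE 0.0881, adjusted p = 0.217 in edgeR). Cbs, the first enzyme of transsulfuration, which astrocytes express strongly, was 28.6 ± 3.25 and 35.3 ± 8.05 CPM (log2 fold change 0.30, SE 0.0864, adjusted p = 0.226 in edgeR). Sdc4, a heparan sulphate proteoglycan of the cell surface, was 56.4 ± 4.09 and 67.5 ± 18.8 CPM, and mouse 12 alone was at 100.5 CPM.

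Other well-known astrocyte genes did not pass even without adjustment. Apoe was 1524 ± 122 CPM in Fkbp5lox/lox controls and 1541 ± 288 in Fkbp5Nex controls (SD, n = 6), and Gja1, the main connexin of astrocytes, was 249 ± 21.8 and 280 ± 83.8 CPM. Aqp4, the endfoot water channel, was 194 ± 26.8 and 227 ± 62.2 CPM. Mfge8, a bridge for the uptake of cell debris, was 156 ± 32.0 and 155 ± 28.2 CPM. In each of these 4 genes the spread in Fkbp5Nex controls contained all or nearly all Fkbp5lox/lox values.

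The number of genes passing in this comparison depended on mice 12 and 52, and without surrogate variables so did the direction of the list. With both left out, a choice made after seeing the data, 1 of the 35 genes passed an unadjusted p under 0.05 (6.32% of all genes did) and 26 had a higher fitted level in Fkbp5Nex, with a median log2 fold change of 0.093. With both left out and no surrogate variables, 14 of 35 were higher, the median was -0.020, and 1 gene passed (9.48% of all genes). With all mice and no surrogate variables, 28 were higher, the median was 0.139 and 9 passed (4.22% of all genes). Leaving out mouse 12 alone left 2 genes with an unadjusted p under 0.05 (4.83% of all genes), and leaving out mouse 52 alone left 3 (6.13%). The count was 5 without Fkbp5Nex control mouse 32 (8.54%), 5 without Fkbp5lox/lox ELS mouse 8 (7.35%) and 1 without Fkbp5lox/lox control mouse 74 (5.2%). The difference between the mean astrocyte scores of the control groups was 0.493 with all mice and -0.08 without both.

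**Figure D3:**
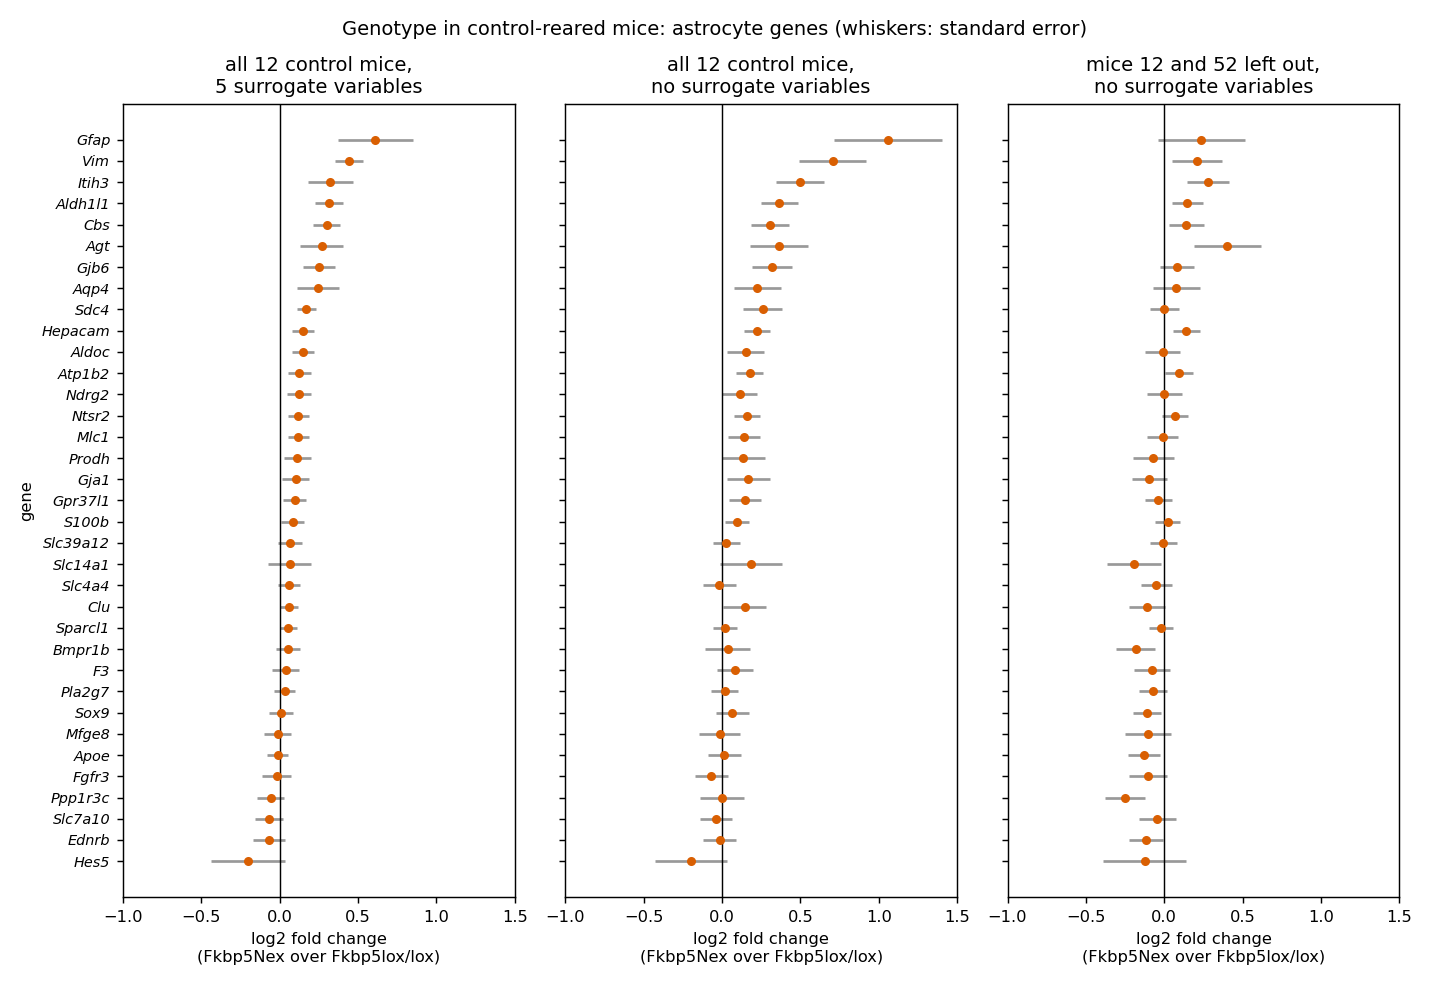
Log2 fold change of each of the 35 genes (points, with standard errors as whiskers) between Fkbp5Nex and Fkbp5lox/lox mice reared under control conditions, with 5 surrogate variables, without them, and without them after leaving out mice 12 and 52. The median of the 35 moves from 0.096 to 0.139 and then to -0.020, and Gfap from 0.61 to 1.06 to 0.24.

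Markers of other regions were read in the same comparison, in which 0.0494% of all genes were called. All 8 markers of dentate granule neurons had lower fitted levels in Fkbp5Nex controls, and 3 (Prox1, Dsp and Npnt) were called, while all 6 detected markers of choroid plexus were lower and 1, Ttr, was called. With mice 12 and 52 left out, 0 markers of either list were called, in a fit that called 1 of all genes. In that fit 1 of the 8 granule neuron markers was higher (median log2 fold change -0.313) and 4 passed an unadjusted p under 0.05 (6.32% of all genes). Of 7 choroid plexus markers then tested, 0 were higher (median -1.161) and 5 passed. Without surrogate variables as well, 0 of either list were higher. The medians were -1.194 for granule neurons (6 passed) and -0.329 for choroid plexus (0 passed), where 9.48% of all genes passed. The summed granule neuron markers ranged from 418 to 716 CPM in Fkbp5lox/lox controls and from 265 to 879 CPM in Fkbp5Nex controls, so that the groups overlapped. The study describes the dentate gyrus as outside the deletion. Of the 11 thalamic markers, 10 had a higher fitted level in Fkbp5Nex controls (median log2 fold change 0.447), 4 passed an unadjusted p under 0.05, where 8.69% of all genes did, and 0 were called. With mice 12 and 52 left out, 5 of the 11 were higher, the median was -0.021 and 1 passed (6.32% of all genes). The part of this regional make-up in the astrocyte result was not tested.

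ELS in Fkbp5Nex mice was read against the same 6 Fkbp5Nex controls, so that mice 12 and 52 enter it as well. Of the 35 genes, 28 had lower fitted levels in ELS than in control Fkbp5Nex mice (median log2 fold change -0.050, against 0.004 over all genes). None was called, as none of all genes was (0%), and 2 passed an unadjusted p under 0.05, where 2.79% of all genes did. These were Cbs, at 35.3 ± 8.05 CPM in controls and 27.9 ± 3.99 CPM in ELS mice (log2 fold change -0.29, SE 0.092, adjusted p = 1 in edgeR), and Vim, at 59.3 ± 27.2 and 33.3 ± 7.33 CPM (log2 fold change -0.30, SE 0.0968, adjusted p = 1). Gfap was 958 ± 673 CPM in controls and lowest 257, median 365 and highest 640 CPM in ELS mice, with a log2 fold change of -0.46 (SE 0.251). Without surrogate variables 33 of 35 genes were lower, the median was -0.132 and 10 passed (3.06% of all genes), Gfap and Vim having log2 fold changes of -1.17 and -0.84. When mice 12 and 52 were left out of that fit, 19 of 35 were higher, the median was 0.005 and 1 gene passed, where 2.81% of all genes did. When they were left out of the fit with surrogate variables, 2 genes passed, where 3.74% of all genes did. Leaving out Fkbp5Nex control mouse 54 or Fkbp5lox/lox ELS mouse 72 gave 4 genes each (3.08% and 2.96% of all genes).

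ELS was then compared with control rearing in Fkbp5lox/lox mice. Fitted levels were higher for 15 genes and lower for 20, with a median log2 fold change of -0.019, none was called (0% of all genes) and 1 passed an unadjusted p under 0.05, against 4.86% of all genes. That gene was Itih3, which codes for a heavy chain of the inter-alpha-trypsin inhibitors that bind hyaluronan in the matrix. It was lowest 19.3, median 22.3 and highest 26.1 CPM in Fkbp5lox/lox controls and lowest 24.2, median 26.5 and highest 42.9 CPM in ELS mice, the latter in mouse 72. The groups overlapped, and the log2 fold change was 0.34 (SE 0.148, adjusted p = 0.954 in edgeR). Without mouse 72 it was 0.06 (SE 0.117), and 0 of the 35 genes passed, where 4.1% of all genes did. With 1 other mouse left out at a time the count ran from 0 (without Fkbp5lox/lox control 74) to 5 (without Fkbp5Nex control 32), with 2 or 3 genes without Fkbp5lox/lox controls 30, 44 and 50 or Fkbp5lox/lox ELS mice 4 and 78, where 3.9% to 6.88% of all genes passed. The next was Mlc1, an endfoot membrane protein, which was 180.5 ± 11.2 CPM in controls and 163 ± 14.5 CPM in ELS mice (log2 fold change -0.12, edgeR). Gfap was 460 ± 85.6 and 465 ± 157 CPM. Without surrogate variables the count was again 1 of 35, Itih3, where 2.76% of all genes passed.

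Genotype was next compared among ELS mice. Fitted levels were higher in Fkbp5Nex for 24 of 35 genes (median log2 fold change 0.056), none was among the 2 called (0.0123% of all genes), and 5 passed an unadjusted p under 0.05, all higher in Fkbp5Nex, against 6.59% of all genes. The count was 2 without Fkbp5lox/lox ELS mouse 72 (4.73% of all genes) and 3 without Fkbp5lox/lox ELS mouse 4 (6.18%). It was also 3 without any 1 of Fkbp5Nex ELS mice 58, 62 and 66 or Fkbp5lox/lox controls 28, 30 and 34 (5.31% to 6.59% of all genes). With all mice, the 5 were Mlc1, Pla2g7, Ndrg2, S100b and Gpr37l1. Mlc1 was 163 ± 14.5 CPM in Fkbp5lox/lox ELS mice and 182 ± 21.5 CPM in Fkbp5Nex ELS mice (log2 fold change 0.22, SE 0.0693, adjusted p = 0.619 in edgeR). Pla2g7, a secreted phospholipase that cleaves platelet-activating factor, was 123.5 ± 9.67 and 139 ± 16.4 CPM (log2 fold change 0.21, SE 0.0686, adjusted p = 0.637). Gfap, at 465 ± 157 and 427 ± 162 CPM, and Vim, at 33.1 ± 4.93 and 33.3 ± 7.33 CPM, differed by less than their SD between these groups. Without surrogate variables 17 of 35 were higher and 0 passed, where 4.47% of all genes did.

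The interaction, taken as the ELS effect in Fkbp5lox/lox minus that in Fkbp5Nex mice, is the comparison that speaks to the interplay of genotype and rearing. It was positive for 19 of 35 genes with a median of 0.012, none was called (0% of all genes), and 3 passed an unadjusted p under 0.05, against 4.02% of all genes. Cbs had an interaction of 0.39 (SE 0.126), Vim of 0.40 (SE 0.133) and Itih3 of 0.54 (SE 0.205), each with an adjusted p of 0.999 in edgeR. For Itih3 the group means were 22.7 ± 2.78, 29.3 ± 7.04, 32.1 ± 9.95 and 25.2 ± 2.72 CPM in Fkbp5lox/lox controls, Fkbp5lox/lox ELS mice, Fkbp5Nex controls and Fkbp5Nex ELS mice, so that ELS went with a higher mean in Fkbp5lox/lox and a lower mean in Fkbp5Nex. The highest Itih3 values were 51.6 CPM in Fkbp5Nex control mouse 52 and 42.9 CPM in Fkbp5lox/lox ELS mouse 72. Without surrogate variables 22 were positive and 5 passed, where 2.04% of all genes did. With surrogate variables the count was 6 without Fkbp5Nex control mouse 32 (5.97% of all genes). It was 5 without any 1 of Fkbp5lox/lox ELS mouse 78 and Fkbp5lox/lox controls 30 and 34 (3.71% to 4.43%). Leaving out mouse 12 gave 2 (3.14%), mouse 52 gave 3 (3.88%) and both gave 2 (3.77%). The count was also 2 without Fkbp5lox/lox control 74 (2.9%) or Fkbp5lox/lox ELS mouse 72 (3.75%). For Vim the interaction was 0.35 (SE 0.195) without mouse 12 and 0.25 (SE 0.0975) without mouse 52.

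Averaged over both rearing conditions, 28 of 35 genes were higher in Fkbp5Nex mice (median log2 fold change 0.082). None was among the 19 called (0.117% of all genes) and 10 passed an unadjusted p under 0.05, all higher, against 11.5% of all genes. Without mouse 52 the count was 2, of which 1 was higher (8.35% of all genes), without mouse 12 it was 6 (6.5%), and with both left out 4 (8.33%). In each of these 3 fits 2 genes were called over all genes. The count was 16 without Fkbp5Nex ELS mouse 10 (12% of all genes). It was 6 without Fkbp5lox/lox ELS mouse 4 or 68 (9.9% and 11%), and 5 without Fkbp5lox/lox control 30 or 74 (9.16% and 8.3%). Smallest with all mice were the p-values of Vim (log2 fold change 0.24, SE 0.0648, adjusted p = 0.13 in edgeR) and Aldh1l1 (0.23, SE 0.0628, adjusted p = 0.133). Without mouse 52 the log2 fold change of Vim was 0.04 (SE 0.0608, adjusted p = 0.908). Aldh1l1 was 33.2 ± 2.96 CPM in Fkbp5lox/lox ELS mice and 36.5 ± 4.08 CPM in Fkbp5Nex ELS mice. Its log2 fold change was positive in every setting and left-out mouse tried (0.14 to 0.28), as was that of Vim (0.04 to 0.36). Without mouse 12 the adjusted p of Aldh1l1 was 0.794 in edgeR. Without surrogate variables 30 were higher and 2 passed, where 6.63% of all genes did. Of 30 further astrocyte genes, 23 were higher with surrogate variables (median 0.073), 7 passed an unadjusted p under 0.05 (11.5% of all genes) and 0 were called.

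Averaged over both genotypes, 29 of 35 genes were lower after ELS, with a median log2 fold change of -0.040. None was called (0% of all genes) and 0 passed an unadjusted p under 0.05, where 3.56% of all genes did. Leaving out 1 mouse at a time gave 0 to 3 genes, the 3 without Fkbp5Nex control mouse 54 (4.46% of all genes). The count was 2 without mouse 52 (4.16%) or Fkbp5Nex ELS mouse 66 (3.63%). It was 1 without mouse 12, Fkbp5Nex ELS mouse 62, Fkbp5lox/lox control 30 or Fkbp5lox/lox ELS mouse 8 or 56 (3.41% to 3.81%). Nearest were Aqp4 (-0.18, SE 0.104, adjusted p = 1 in edgeR) and Sparcl1, a synapse-promoting matrix protein (-0.07). Aqp4 was lowest 143, median 187 and highest 194.5 CPM in Fkbp5lox/lox ELS mice and lowest 134, median 187 and highest 227 CPM in Fkbp5Nex ELS mice, and both ranges overlapped those of the controls. Without surrogate variables 31 were lower and 6 passed (Gfap, Vim, Aqp4, Slc39a12, Ednrb and Clu), where 3.84% of all genes did, and the microglial list had 10 of 10 members lower in the same fit.

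Genes of reactive astrocytes were read beside the list, and the part of other cell types in their levels was not tested. Of 27 detected, 24 had a higher fitted level in Fkbp5Nex than in Fkbp5lox/lox controls (median log2 fold change 0.206), 5 passed an unadjusted p under 0.05, where 8.69% of all genes did, and 0 were called. With mice 12 and 52 left out, 19 of the 27 were higher, the median was 0.086 and 0 passed (6.32% of all genes). The mean score of this list was 0.640 higher in Fkbp5Nex than in Fkbp5lox/lox controls with all mice, and 0.233 higher without mice 12 and 52. Serpina3n, a protease inhibitor and a strong marker of the reactive state, had a log2 fold change of 0.40 (SE 0.147, adjusted p = 0.429 in edgeR). For ELS in Fkbp5Nex mice, 15 of the 27 were lower, 0 passed an unadjusted p, where 2.79% of all genes did, and 0 were called. The 30 other astrocyte genes had a median log2 fold change of 0.096 in the control comparison of genotype, with 25 higher, 6 at an unadjusted p under 0.05 (8.69% of all genes) and 0 called. Without mice 12 and 52, 27 were higher, the median was 0.079 and 1, with a lower fitted level, passed, and without surrogate variables as well 12 were higher (median -0.026). Their mean score differed by 0.331 between the control groups with all mice and by -0.017 without mice 12 and 52.

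Within groups, most of the 35 genes rose and fell together from mouse to mouse. After subtracting group means, the 595 pairs had a median Pearson's r of 0.539 over 24 mice, 547 were positive and 323 were above 0.5. Leaving out mice 12 and 52 gave a median of 0.419, with 529 positive and 243 above 0.5. The first principal component took 55.8% of the variance of the list and the next 9.03%. These correlations are descriptions, since the genes of 1 mouse share its library and dissection and are not independent.

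The genes closest to the rest of the list were Gja1 (r = 0.937 with the score of the other 34), Mlc1 (0.936), the glycolytic Aldoc (0.908) and Apoe (0.906), and 22 of the 35 were above 0.7. Without mice 12 and 52 these 4 remained at 0.858 to 0.899. Gfap (0.676) and Vim (0.684) were less close and fell to 0.413 and 0.426 without the 2 mice, so that the filament genes followed the other astrocyte genes less well among the remaining 22 animals. Hes5 (0.075), the serine transporter Slc7a10 (0.171), Itih3 (0.287) and Agt (-0.131) did not follow the list. The genes outside the list with levels most like the astrocyte score were Ttyh1 (r = 0.930), Ddah1 (0.929), Fads2 (0.926), Pon2 (0.925) and Axl (0.913), and 369 of 16170 genes outside the list were above 0.7. Of the glutamate-handling genes of astrocytes, Slc1a3 was at 0.794, Glul at 0.788 and Slc1a2 at 0.705, while the potassium channel gene Kcnj10 was at 0.102 and the GABA transporter gene Slc6a11 at -0.294.

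The common movement was largely taken up by the surrogate variables. Together they accounted for 70.8% of the within-group variance of the astrocyte score, the first having an r of 0.776 with the score, and for a median of 61.6% of the within-group variance of single members (16.2% for Hes5 to 89% for Clu), where the median over all genes was 56.8%. A fit with surrogate variables therefore compares groups after removing most of what these genes share.

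That shared movement followed the markers of several other cell types. Each of the 35 genes was correlated with the scores of 7 marker lists over the 24 mice, after subtracting group means, giving 245 pairs tested with 100000 permutations of mice within groups and adjusted together, and a pair passed when the adjusted p of both Pearson's r and Spearman's rho was below 0.05. With microglia 22 genes passed and 33 of 35 had a positive r (median 0.730). Highest was Mlc1 (r = 0.913, adjusted permutation p = 0.00122, rho = 0.832, adjusted permutation p = 0.00163), which stayed at 0.857 without the 2 mice farthest from the median microglial score. Clu had an r of 0.889 and Gfap of 0.794 with the microglial score, and without the 2 farthest mice these were 0.844 and 0.693. For this list the 2 farthest mice were Fkbp5Nex controls 42 and 12, so that mouse 52, which was high in Gfap, stayed in. With endothelial markers 7 genes passed (median r of all 35 genes 0.585).

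With the remaining lists the correlations were mostly negative. For ependyma 14 genes passed (median r -0.464), for choroid plexus 12 (-0.447), for oligodendrocytes 11 (-0.519) and for neurons 10 (-0.423). Bmpr1b, a receptor for bone morphogenetic proteins, was the most negative, with an r of -0.803 and a rho of -0.818 with the 3 detected ependymal genes (adjusted permutation p of 0.00122 and 0.00163) and an r of -0.760 without the 2 farthest mice. Mfge8 was the most negative against oligodendrocytes (r = -0.729, adjusted permutation p = 0.007, rho = -0.674, adjusted permutation p = 0.0152, and -0.661 without the 2 farthest mice). Astrocyte transcripts thus took a larger share of a library where microglial and endothelial transcripts did, and a smaller share where oligodendrocyte, ependymal, choroid plexus and neuronal transcripts took more. CPM are shares of a library, so that a rise of some transcripts lowers the others.

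**Figure D4:**
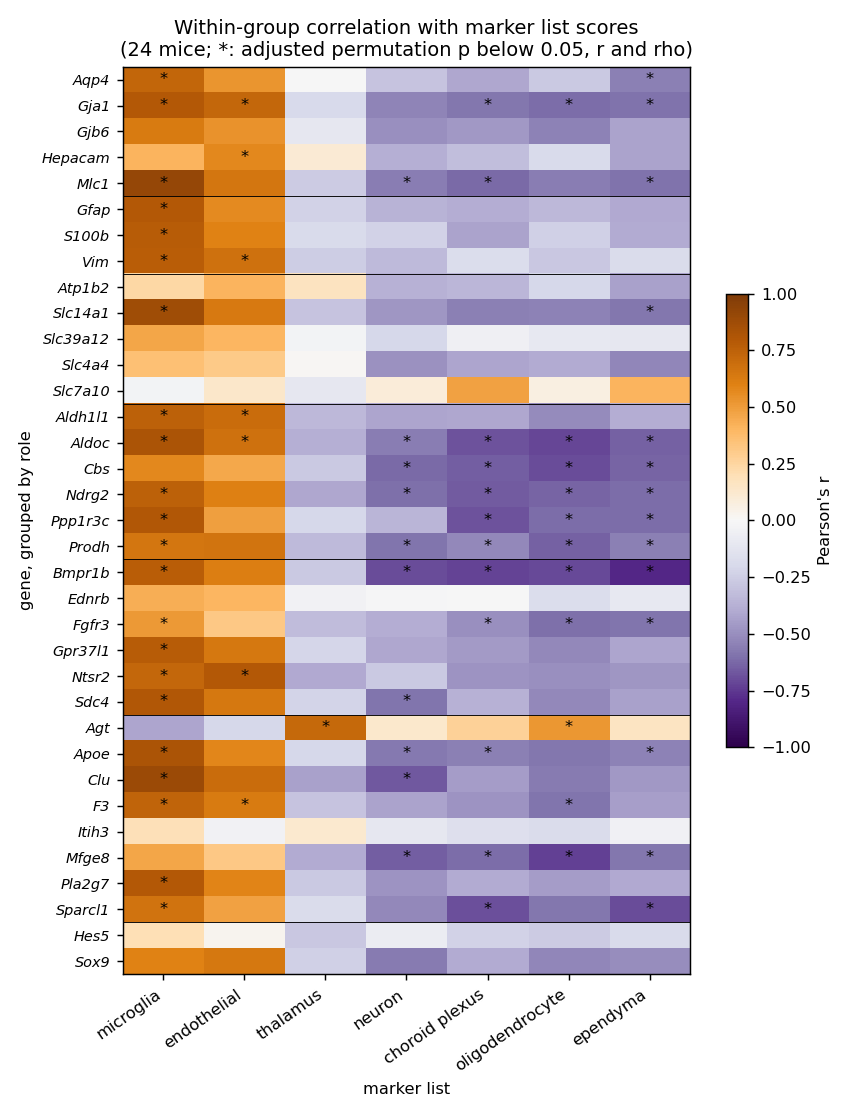
Pearson's r over 24 mice, after subtracting group means, between each of the 35 genes (rows, grouped by role) and the score of 7 marker lists (columns); an asterisk marks pairs whose adjusted permutation p was below 0.05 for r and rho. The microglia column is positive for 33 of 35 genes, and Agt is the exception that is highest with the thalamus list (0.711).

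Agt was the exception. It codes for angiotensinogen, the precursor of the angiotensins, which astrocytes of the thalamus, hypothalamus and brainstem are known to express more than those of the hippocampus. Its level was lowest 15.4, median 29.1 and highest 37.3 CPM in Fkbp5lox/lox controls, lowest 29.4, median 34.1 and highest 48.9 CPM in Fkbp5lox/lox ELS mice, lowest 26, median 35.6 and highest 47.4 CPM in Fkbp5Nex controls, and lowest 20.8, median 31.9 and highest 40.7 CPM in Fkbp5Nex ELS mice. All 4 groups overlapped. Agt was the single gene of the 35 that passed with the thalamic markers, with an r of 0.711 (adjusted permutation p = 0.00122) and a rho of 0.806 (adjusted permutation p = 0.00163), and an r of 0.638 without Fkbp5Nex ELS mouse 66 and Fkbp5lox/lox ELS mouse 78, the 2 farthest from the median thalamic score. It was also positive with oligodendrocytes (r = 0.521, adjusted permutation p = 0.0343, rho = 0.606, adjusted permutation p = 0.0152), where 33 of the 35 genes were negative.

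The thalamic score differed between groups, with means of -0.613 in Fkbp5lox/lox controls and 0.538 in Fkbp5lox/lox ELS mice. The list holds Tcf7l2, Zic1 and Zic4, which the study named as hub genes (highly connected genes) of a co-expression module found in these libraries. It also holds Slc17a6, which the study gave as a gene of that module regulated by the transcription factor TCF4. Hub genes of that module were reported there as higher after ELS in Fkbp5lox/lox mice. A higher score in this comparison was thus in part set by the choice of genes. Between the same groups Agt had a log2 fold change of 0.36 (SE 0.186) without surrogate variables and of 0.11 (SE 0.144) with them, and it was not called (adjusted p = 0.97 in edgeR with them). The part of thalamic tissue in that difference was not tested. Mfge8, which astrocytes of the forebrain are known to express more than those of the brainstem, had an r of -0.392 with the thalamic score, which did not pass (adjusted permutation p = 0.114).

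**Figure D5:**
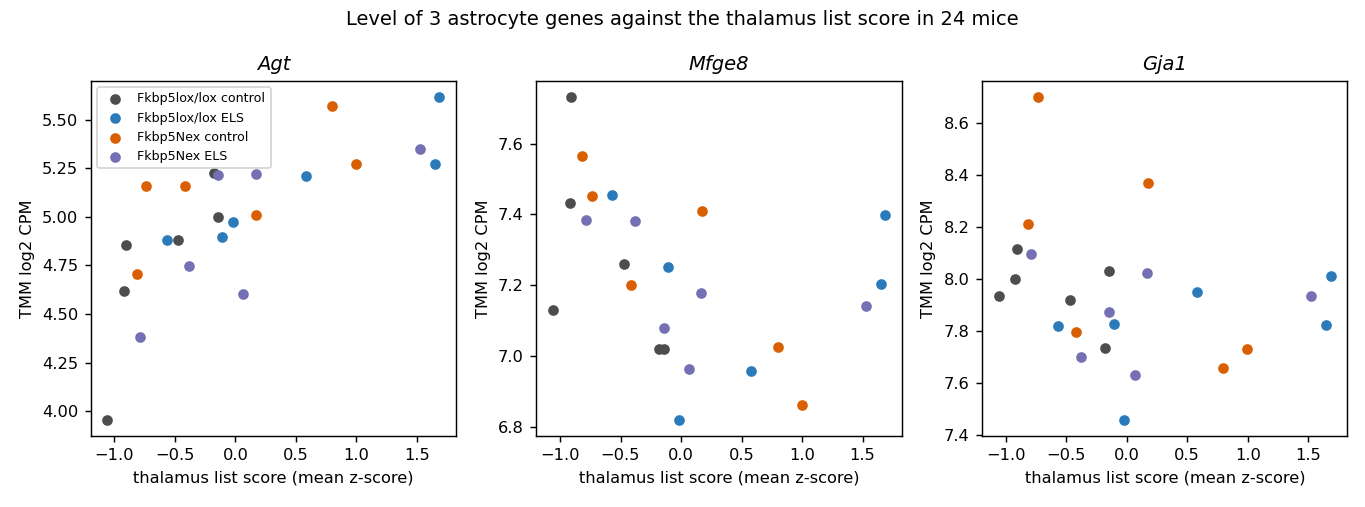
TMM log2 CPM of Agt, Mfge8 and Gja1 against the score of 11 thalamic markers (mean z-score) in the 24 mice, coloured by group. Agt rises with the score (within-group r = 0.711), whereas Mfge8 (-0.392) and Gja1 (-0.200) do not.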

How the data were processed

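Raw read counts per gene were deposited by the authors, who aligned reads with HISAT2 (2.0.5) and counted them with featureCounts (1.5.0-p3) per the submitters' processing notes and the study's methods. The genome build, annotation, strandedness and treatment of multimapping reads are not given in the sources used here. Mice were grouped by the labels' genotype and treatment, with n = 6 per group, and no batch is labelled. From the deposited counts, genes with at least 10 reads in every mouse of at least 1 group were kept (16209 of 46983), scaled by TMM, and fitted with group means and 5 surrogate variables (svaseq, sva 3.50.0) over all 24 mice in edgeR 4.0.16 (R 4.3.3), with quasi-likelihood tests on 15 residual degrees of freedom, Benjamini-Hochberg adjustment over all genes and a threshold of 0.02. The 60 pairs of mice within groups differed by a chi-square of 5.88 to 59.9 per gene, so none was a repeat deposit. Scripts were tested on simulated data.

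List scores were means of z-scores of log2 CPM, and correlations used deviations from group means. The 35 genes, all marker lists and the added settings were chosen with earlier results of these data known. Named genes were the pair with the smallest p in each comparison, 7 standard markers (Gfap, Aqp4, Aldh1l1, Gja1, Apoe, Agt and Mfge8), the highest and lowest gene per kilobase, called genes of other lists and the 5 genes most correlated with the score. Any other gene named was picked with its values in view. Alternatives were no or 2 surrogate variables, other scaling, other filters, DESeq2 1.42.0, a threshold of 0.05, fits on the 12 mice compared, and each mouse left out. Gene positions are from GENCODE vM21 (46488 of 46983 genes matched by identifier). Depth was 18347283 to 26555623 counts.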

Additional observations from a re-analysis of the deposited data

Results flagged for a closer look

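Within groups of 6, a mouse was marked when its distance to the nearest other mouse exceeded 0.625 of the group's range (Dixon's test). Over 144 groups of values (35 genes and the astrocyte score in 4 groups), 10 were marked, where chance marks about 1 in 20. In the Fkbp5lox/lox controls, mouse 50 was lowest for Mlc1 (159.0 CPM) and Pla2g7 (115.9 CPM), and mouse 44 was highest for the growth factor receptor Fgfr3 (150.5 CPM). In Fkbp5lox/lox ELS mice, mouse 72 was lowest for Prodh (18.39 CPM) and for F3, tissue factor (36.69 CPM), and highest for Itih3 (42.86 CPM), and mouse 78 was highest for Slc39a12 (61.39 CPM). In Fkbp5Nex controls, mouse 12 was highest for Bmpr1b (46.32 CPM) and mouse 52 for Itih3 (51.61 CPM). In Fkbp5Nex ELS mice, mouse 60 was highest for Prodh (36.55 CPM). Gfap and Vim were not marked, since mice 12 and 52 are near each other and the gap to the nearest mouse is then small. The cause of these values was not tested.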

How the results depend on the processing

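In each of the 7 comparisons the number of astrocyte genes called was 0 with 5, 2 or no surrogate variables, under RLE scaling, both other filters and with mice 12 and 52 left out, and in the 4 comparisons of 2 groups also in fits on the 12 mice compared. The exceptions were in the genotype comparison of controls, where Vim made it 1 with DESeq2 (adjusted p = 0.00165) and 1 at a threshold of 0.05 (adjusted p = 0.0446), and where leaving out single mice gave 0 to 1, with 1 without Fkbp5lox/lox ELS mouse 4. The direction of Vim for ELS in Fkbp5lox/lox mice, positive in the main fit, was -0.14 without surrogate variables, -0.13 with the first 2 and -0.14 without mice 12 and 52 and surrogate variables. For genotype in ELS mice Vim was -0.03 with the first 2 surrogate variables and ran from -0.09 to 0.12 over left-out mice. Gfap ran from -0.10 to 0.40 over left-out mice for ELS in Fkbp5lox/lox mice, from -0.03 to 0.74 for genotype in controls (-0.03 without mouse 52) and from -0.33 to 0.24 for genotype in ELS mice. The cause was not tested. Astrocyte score differences moved by less than the within-group SD of 0.689. Every difference with all mice was itself smaller than that SD, so this cannot show that they held, and some changed sign. Genotype in controls was 0.493 with all mice and -0.08 without mice 12 and 52, and the interaction 0.412 and -0.172. ELS in Fkbp5Nex mice was -0.626 and -0.082. Mice 12 and 52 were left out after being seen to have the highest scores, which lowers the Fkbp5Nex control mean by construction. No paired analysis was possible because each mouse number belongs to 1 group only. The smallest p that 100000 permutations can give is 1e-05.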
